A study of Mus musculus with 16 samples.

Results

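The guanylate-binding proteins (GBPs) and the immunity-related GTPases (IRGs) are interferon-induced GTPases of the cell's own defence. Their genes were followed here across 4 groups of mouse livers. The set holds 10 genes chosen by symbol, the GBP genes Gbp2, Gbp3, Gbp5, Gbp6 and Gbp7 and the IRG genes Igtp, Irgm1, Irgm2, Iigp1 and Ifi47. Of these, 5 have a probe set annotated to them alone (Gbp3, Gbp5, Gbp7, Irgm1 and Iigp1, each with 1), out of 15908 genes tested. The other 5 appear only on 4 probe sets that the platform annotation gives to several genes at once. Those 4 are described as probe sets, because their signal cannot be assigned to 1 gene.

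The 16 samples were RNA of whole liver from male mice on a C57Bl/6 background, 1 Affymetrix array each. Homozygous S534A knock-in mice carry alanine in place of a serine in p65, the NF-kB subunit encoded by Rela, in the germline allele and so in all tissues. They descend from targeted embryonic stem cell clones, with the selection cassette removed and backcrosses to C57Bl6/J, and they were compared with WT C57Bl6/J mice. Each genotype was studied after 1 mg/kg lipopolysaccharide (LPS, a bacterial endotoxin) and untreated, with 4 samples in each of the groups S534A with LPS, WT with LPS, S534A untreated and WT untreated. The series text names the LPS dose beside the untreated S534A group too, and the sample titles were followed. The labels give neither ages nor the time from LPS to collection, and no vehicle injection is mentioned for the untreated livers, so handling and LPS cannot be told apart. Nothing in the labels ties each sample to its own mouse, so p-values reflect the spread among the arrays, which may be technical.

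GBPs are large GTPases of the dynamin superfamily that assemble on bacteria and on the vacuoles around intracellular parasites. In mouse cells the GBPs encoded on chromosome 3 also help caspase-11, the product of Casp4, to sense LPS in the cytosol. IRGs are smaller GTPases of the same vacuole attack. Irgm1, Irgm2 and Igtp encode regulators that sit on the cell's own membranes and restrain the others, while Iigp1 and Ifi47 encode effectors that load onto pathogen vacuoles. Both families are induced by interferons, through gamma-activated sites and interferon-stimulated response elements in their promoters.

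In GRCm38.p6, Gbp5, Gbp7, Gbp3, Gbp2b and Gbp2 follow each other on chromosome 3, Gm12250, Igtp and Irgm2 follow each other on chromosome 11, and Irgm1 and Ifi47 stand at the ends of another family cluster on chromosome 11. RefSeq promoter windows of 250 bases before to 50 after the start were read for the 8 of the 10 genes that had one. The stretches below are shown because they share a motif before the start of genes that rose after LPS or that lie on probe sets that did. Capitals mark matches to the interferon-stimulated response element core (GAAA, any 2 bases, GAAA) on either strand, the sequences are those of RefSeq (GRCm38.p6), and each runs 5′ to 3′ on the gene's strand and ends before the gene's annotated start.
Gbp5 (chr3:142496744-142496803, plus strand): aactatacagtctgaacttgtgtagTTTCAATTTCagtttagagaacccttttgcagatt
Gbp3 (chr3:142559974-142560015, plus strand): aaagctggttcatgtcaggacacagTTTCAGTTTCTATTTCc
Gbp7 (chr3:142530258-142530317, plus strand): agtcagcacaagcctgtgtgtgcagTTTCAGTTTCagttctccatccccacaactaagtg
Gbp2 (chr3:142620579-142620638, plus strand): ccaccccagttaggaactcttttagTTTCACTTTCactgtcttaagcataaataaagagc
Irgm1 (chr11:48871421-48871475, minus strand): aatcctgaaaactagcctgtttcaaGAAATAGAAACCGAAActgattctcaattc
Irgm2 (chr11:58214888-58214947, plus strand): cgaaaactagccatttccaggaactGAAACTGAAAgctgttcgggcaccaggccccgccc
Igtp (chr11:58199497-58199555, plus strand): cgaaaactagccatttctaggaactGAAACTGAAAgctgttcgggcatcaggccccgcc

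The core matched in 7 of these 8 genes of the set, in Gbp3 in 1 of its 2 windows, and the Ifi47 window held none. It also matched in 5 of 8 other family genes with a window. Among those 5 were Gm12250, which rose after LPS, and Gbp2b, whose own probe set did not. Of all 27025 genes with RefSeq windows of the same length, 3.99% had the core in at least 1 window, as did 3.44% of the 32851 windows. In Gbp3 and Irgm1 a pair of matches overlap. The gamma-activated site TTCNNNGAA, which reads the same on both strands, matched in 4 of the 8 genes (Gbp5, Gbp7, Igtp and Irgm2), against 9.55% of all genes and 8.30% of windows. In Igtp and Irgm2 it ends 2 bases before the response element, and the same spacing was found in Tgtp1 and Tgtp2, related IRG genes that were not measured by a probe set of their own. The NF-kB consensus matched in Gbp2 and Gbp5 (2 of 8), against 9.55% of all genes and 8.46% of windows. These are matches of letters in a short window and no measurement of binding. Many of these genes are neighbours within a family, and the Irgm2 and Igtp stretches are nearly the same. Their windows are therefore not independent of each other when set against all genes.

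**Figure D1:**
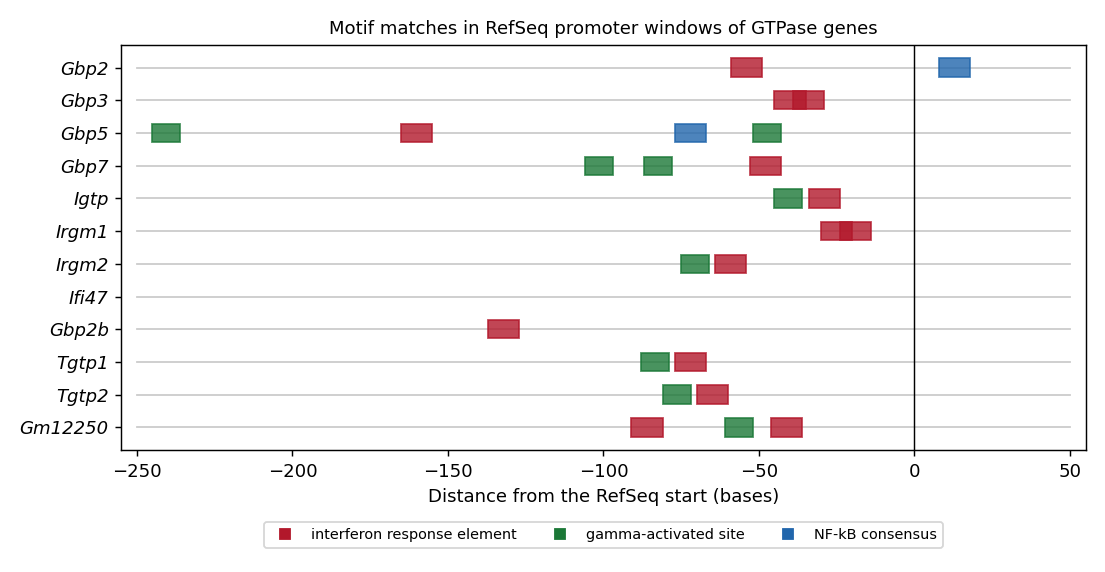
Positions of motif matches in RefSeq promoter windows, in bases from the annotated start (x axis), with 1 row per gene. The upper 8 rows are the genes of the set that had a window, with only the first of the 2 windows of Gbp3, the second of which held no match. The lower 4 rows are a choice from the 8 other family genes that had a window. All 4 hold an interferon response element, as did 5 of those 8. In Igtp, Irgm2, Tgtp1 and Tgtp2 the gamma-activated site lies 2 bases before the interferon response element, and the row of Ifi47 is empty.

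All values below are deposited log2 values after RMA (robust multi-array average), and changes are differences of log2 group means each with its standard error from limma (n = 4 arrays per group). LPS raised each of the 3 GBP genes measured by a probe set of their own. Gbp5, whose product is known in mice to promote inflammasome assembly, read 10.91, 10.93, 10.56 and 10.84 in the S534A arrays after LPS, and 10.91, 10.71, 10.79 and 10.85 in the WT arrays after LPS. It read 5.48, 5.51, 5.53 and 5.44 in untreated S534A arrays and 5.13, 5.39, 5.47 and 5.72 in untreated WT arrays. Arrays with LPS and arrays without it were far apart in both genotypes, and within either treatment the genotypes overlapped. The untreated values lay below the array medians, and whether they exceed background is not known here, so the fold changes of Gbp5 and its place in any order by size hold for the deposited values only. The rise was 5.32 ± 0.11 in S534A livers (40.0-fold, limma adjusted p = 5.47e-16) and 5.39 ± 0.11 in WT livers (41.9-fold, adjusted p = 4.57e-16).

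Gbp3, a GBP of the same chromosome 3 cluster, gave 11.09, 11.27, 11.00 and 11.29 in the S534A arrays after LPS, and 11.40, 11.32, 11.21 and 11.46 in the WT arrays after LPS. Without LPS it gave 7.04, 6.62, 6.94 and 6.95 in untreated S534A arrays and 6.94, 7.21, 6.72 and 7.10 in untreated WT arrays. After LPS 3 of the 4 WT arrays lay above all S534A arrays, and the lowest WT array fell between them. Gbp3 rose by 4.27 ± 0.11 in S534A livers (adjusted p = 1.31e-14) and by 4.35 ± 0.11 in WT livers (adjusted p = 1.06e-14), about 19.3-fold and 20.4-fold. Gbp7, known in mice for antibacterial defence in macrophages, stood at 12.04, 12.32, 12.05 and 12.25 in the S534A arrays after LPS, and 12.28, 12.05, 11.97 and 12.19 in the WT arrays after LPS. Its untreated values were 8.68, 8.30, 8.60 and 8.53 in untreated S534A arrays and 8.38, 8.45, 8.56 and 8.75 in untreated WT arrays. The genotypes were interleaved under both treatments. Its rise was 3.64 ± 0.10 in S534A livers (adjusted p = 3.42e-14) and 3.59 ± 0.10 in WT livers (adjusted p = 3.86e-14), or 12.4-fold and 12.0-fold.

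The 2 IRG genes with their own probe set rose by less than the 3 GBP genes. Irgm1, the regulator that protects the cell's own membranes, measured 12.75, 12.53, 12.76 and 12.59 in the S534A arrays after LPS, and 12.74, 12.75, 12.72 and 12.62 in the WT arrays after LPS. Untreated, it measured 9.78, 9.63, 9.64 and 9.79 in untreated S534A arrays and 10.27, 9.85, 9.98 and 9.92 in untreated WT arrays. The untreated S534A arrays were all below the untreated WT arrays, a difference that did not pass the test between genotypes, while the genotypes overlapped after LPS. Irgm1 rose by 2.95 ± 0.09 in S534A livers (7.72-fold, adjusted p = 5.87e-14) and by 2.70 ± 0.09 in WT livers (6.51-fold, adjusted p = 1.95e-13). The effector Iigp1 reached 12.88, 12.75, 12.95 and 12.76 in the S534A arrays after LPS, and 12.91, 12.84, 12.82 and 12.77 in the WT arrays after LPS. Its untreated levels were 11.09, 11.08, 11.21 and 11.04 in untreated S534A arrays and 10.88, 10.86, 10.84 and 11.19 in untreated WT arrays. Untreated WT array 4 lay within the S534A range, and the other 3 untreated WT arrays lay below all S534A arrays. The rise of Iigp1 was 1.73 ± 0.08 in S534A livers (3.31-fold, adjusted p = 2.75e-11) and 1.89 ± 0.08 in WT livers (3.71-fold, adjusted p = 8.10e-12).

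**Figure D2:**
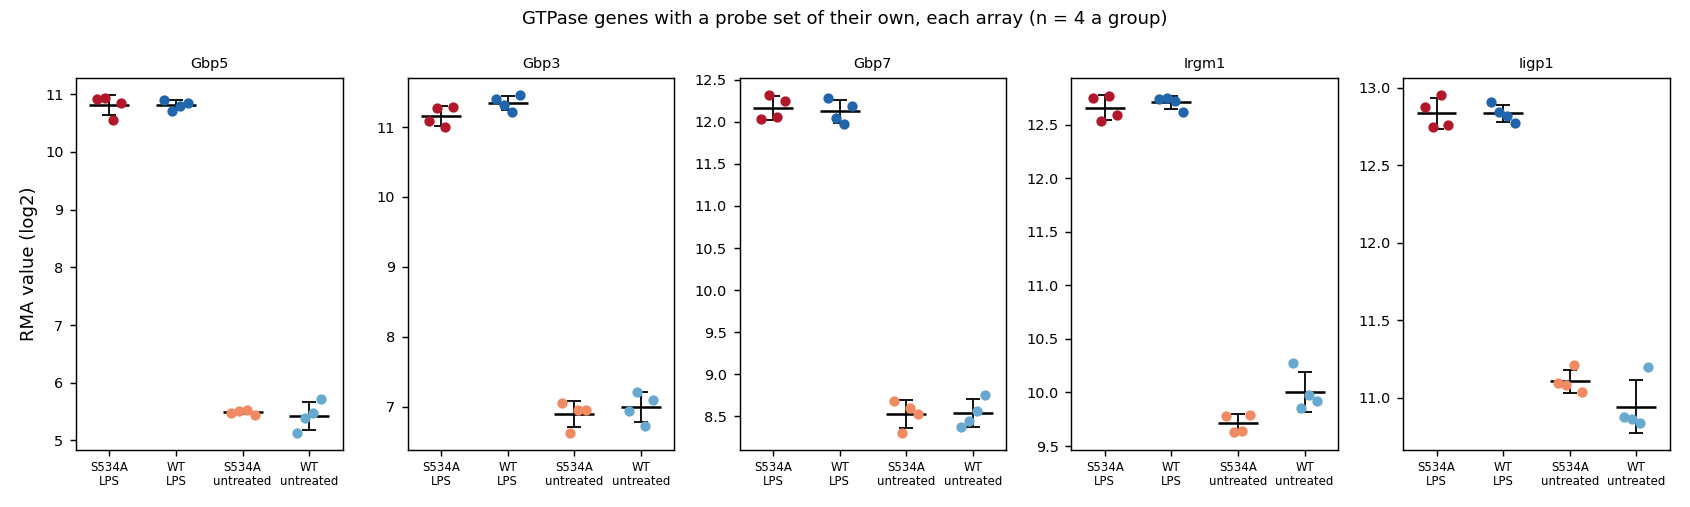
Log2 RMA values (y axis, a scale of its own in each panel) of the 5 genes with their own probe set, 1 point per array in the order of replicate numbers, with the group mean and SD (n = 4) in black. In all 5 panels the LPS arrays of both genotypes lie above every untreated array, and untreated S534A arrays of Irgm1 lie below the untreated WT arrays. That Irgm1 difference did not pass the test (limma adjusted p = 0.280). How many of all genes tested separate in these ways was not counted.

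So 5 of 5 genes rose in S534A livers, where 14.2% of all genes tested rose, and 5 of 5 rose in WT livers, where 14.9% did (limma, Benjamini-Hochberg adjusted p under 0.05). Across the genes tested the median change was −0.03 in S534A and −0.05 in WT, against 3.64 and 3.59 over these 5. Rises made up 31.3% of all calls in S534A and 33.3% in WT, and 21.5% and 22.1% with each array set to a common median, where the 5 genes still rose. The size of the rise ran in the same order in both genotypes, Gbp5, Gbp3, Gbp7, Irgm1 and Iigp1. Each neighbour in that order differed from the next by 0.64 to 1.22 in S534A and by 0.76 to 1.04 in WT, and no 95% intervals of neighbours overlapped in either genotype. Levels of different probe sets cannot be set side by side, so this order is one of changes in the deposited values. The untreated means ran in the opposite order in both genotypes, in WT from 5.43 for Gbp5 to 10.94 for Iigp1. Whether background or a ceiling of the signal narrowed some changes more than others was not tested.

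The 4 shared probe sets rose as well. The probe set annotated to both Gbp2 and Gbp2b read 13.002, 12.98, 12.80 and 12.90 in the S534A arrays after LPS, and 12.97, 12.89, 12.87 and 13.02 in the WT arrays after LPS. Untreated, it read 6.94, 6.59, 7.04 and 7.15 in untreated S534A arrays and 7.06, 6.52, 7.14 and 7.32 in untreated WT arrays. Its rise, 5.99 ± 0.15 in S534A (adjusted p = 6.48e-14) and 5.93 ± 0.15 in WT (adjusted p = 7.71e-14), was 63.6-fold and 60.8-fold. Gbp2b also has a probe set of its own, which gave 6.06, 6.31, 6.17 and 6.24 in the S534A arrays after LPS, and 6.29, 6.07, 6.33 and 6.11 in the WT arrays after LPS. In untreated arrays that probe set gave 6.47, 6.06, 6.17 and 6.22 in untreated S534A arrays and 5.99, 6.401, 6.29 and 6.43 in untreated WT arrays. All 4 groups overlapped there, and its change was −0.04 ± 0.11 in S534A (adjusted p = 0.807) and −0.08 ± 0.11 in WT (adjusted p = 0.614). Which of the genes the shared probe set reads was not tested.

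The probe set annotated to Gbp6 together with Gbp4, Gbp8, Gbp9, Gbp10 and Gbp11, the GBPs of a second cluster, gave 12.95, 13.001, 13.06 and 13.05 in the S534A arrays after LPS, and 13.10, 13.01, 13.03 and 13.01 in the WT arrays after LPS. Without LPS it gave 8.97, 8.40, 9.20 and 8.68 in untreated S534A arrays and 9.02, 8.70, 9.19 and 9.12 in untreated WT arrays. The 8 LPS arrays all lay between 12.95 and 13.10, whereas the 8 untreated arrays ran from 8.40 to 9.20. The rise was 4.20 ± 0.14 in S534A (adjusted p = 1.98e-12) and 4.03 ± 0.14 in WT (adjusted p = 3.33e-12). The probe set of Ifi47 and the olfactory receptor gene Olfr56 stood at 11.16, 11.24, 11.30 and 11.27 in the S534A arrays after LPS, and 11.35, 11.18, 11.19 and 11.22 in the WT arrays after LPS. Without LPS it stood at 7.51, 6.85, 7.81 and 7.40 in untreated S534A arrays and 7.62, 7.03, 7.82 and 7.36 in untreated WT arrays. It rose by 3.85 ± 0.18 in S534A and by 3.78 ± 0.18 in WT (adjusted p = 1.01e-10 and 1.27e-10). The probe set of the regulators Irgm2 and Igtp, whose genes are neighbours, had 12.64, 12.64, 12.59 and 12.71 in the S534A arrays after LPS, and 12.58, 12.65, 12.35 and 12.58 in the WT arrays after LPS. Untreated, it had 9.63, 9.0, 9.53 and 9.52 in untreated S534A arrays and 9.65, 9.36, 9.83 and 9.42 in untreated WT arrays. LPS raised it by 3.22 ± 0.13 in S534A and by 2.97 ± 0.13 in WT (adjusted p = 2.18e-11 and 5.71e-11). In all, 4 of 4 shared probe sets rose in each genotype, where 16.1% of all probe sets tested rose in S534A and 18.2% in WT.

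Untreated arrays were more spread than LPS arrays on the shared probe sets. Their SD within a group had a median of 0.05 in S534A with LPS and 0.07 in WT with LPS, against 0.32 in untreated S534A and 0.28 in untreated WT livers. Array 2 was the lowest untreated array on all 4 of them in S534A and on all 4 in WT. The labels do not say whether array numbers pair samples across groups. For the 5 genes with their own probe set the median SD was 0.14 in S534A and 0.08 in WT after LPS, against 0.09 and 0.18 untreated.

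**Figure D3:**
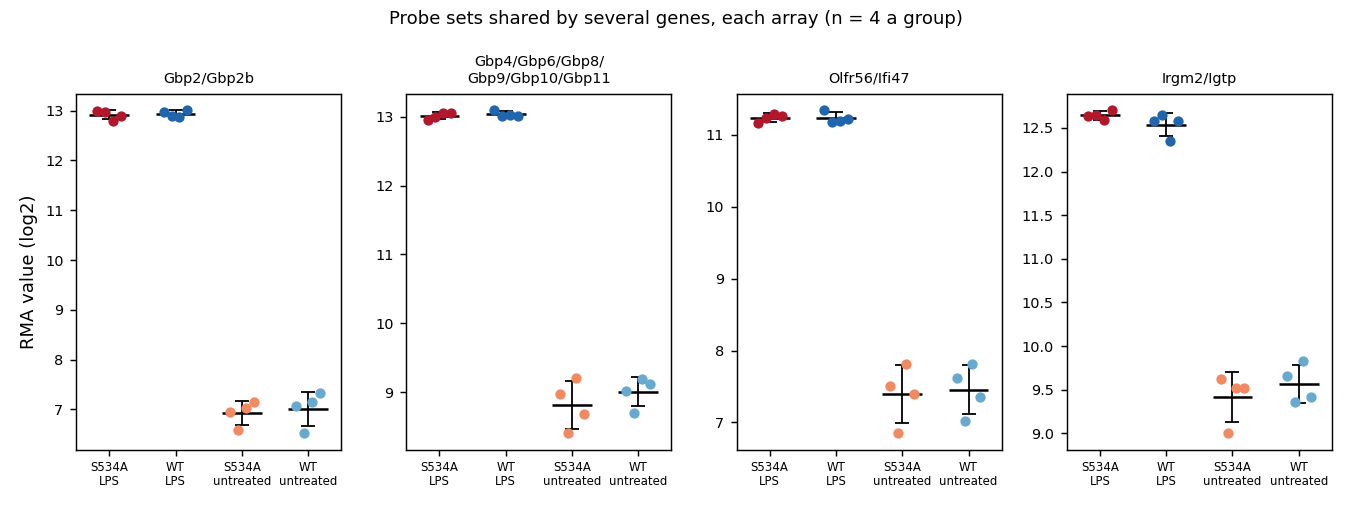
Log2 RMA values (y axis, a scale of its own in each panel) of the 4 probe sets annotated to several genes, 1 point per array in the order of replicate numbers, with the group mean and SD (n = 4) in black. LPS arrays lie tightly together above the untreated arrays, and array 2 is the lowest point of both untreated groups in each panel.

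Genes of both families outside the set were also followed, from a list of 19 names. A probe set of their own was tested for 9 of them, and 6 rose in S534A and 7 in WT, with none lower and a median change of 2.94 and 3.15. Gm12250, the IRG gene also called Irgb10, which neighbours Igtp, rose by 5.43 ± 0.08 in S534A and by 5.49 ± 0.08 in WT. The GBP genes of the second cluster rose too. Gbp9 changed by 4.47 ± 0.12 and 4.63 ± 0.12, Gbp4 by 4.25 ± 0.21 and 4.38 ± 0.21, and Gbp8 by 2.94 ± 0.13 and 3.15 ± 0.13 in S534A and WT. Gbp11 rose by 3.54 ± 0.40 in S534A and 3.28 ± 0.40 in WT, with the widest error of the family. Gm4951, an IRG gene close to Iigp1 in the assembly, rose by 1.75 ± 0.16 in S534A and 1.59 ± 0.16 in WT. The remaining 3 changed little. Irgq stood at 0.32 ± 0.14 in S534A (adjusted p = 0.0715) and at 0.38 ± 0.14 in WT (adjusted p = 0.0341), a WT call lost when untreated WT array 4 (0.23), or WT LPS array 2 (0.27) or 4 (0.36), was left out, and with arrays centred on their median (0.28). It was lost as well with array quality weights (0.19), a second quantile normalization (0.30) or a fit of the compared groups alone. The S534A value passed with those weights (0.26), in the fit of the compared groups alone, without S534A LPS array 3 (0.39), and without untreated WT array 4 or WT LPS array 2. Irgc1 stood at −0.11 ± 0.12 and −0.03 ± 0.12, and Gbp2b is described above. Irgc1 read below the array medians and Gbp2b near them, so whether either gave signal above background is not known here.

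**Figure D4:**
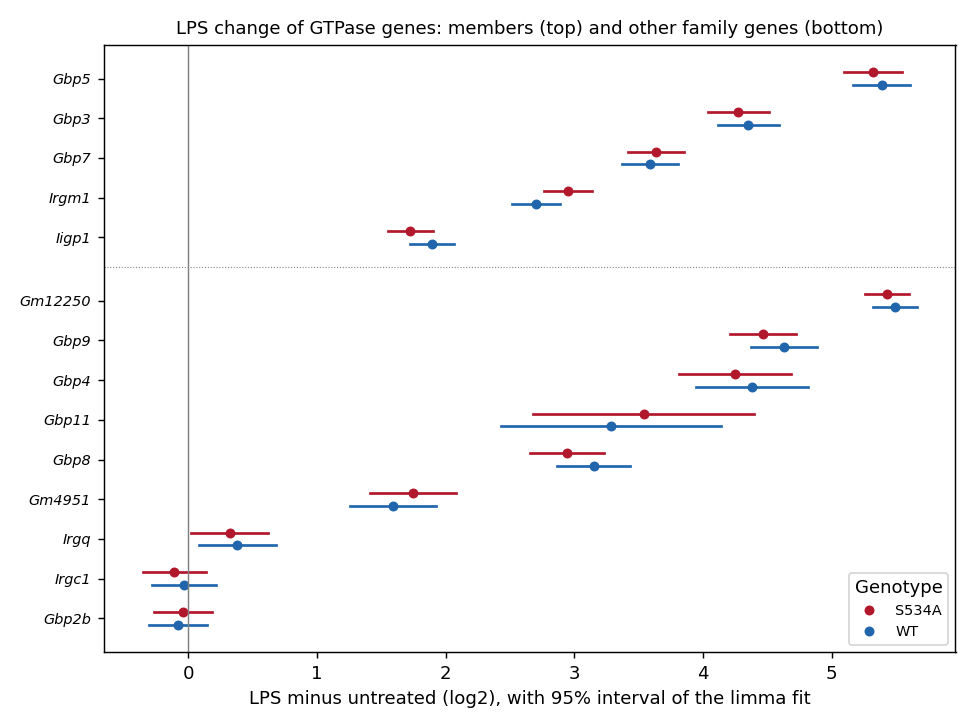
LPS minus untreated log2 change (x axis) of the 5 genes with their own probe set (above the dotted line) and of 9 other family genes (below it), S534A above WT in each row, with the 95% interval of the limma fit (n = 4 per group). The intervals of S534A and WT overlap in every row, and Irgc1 and Gbp2b have intervals that include 0 in both genotypes.

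Counts of falls in the gene lists are read against all genes tested, of which 31.2% fell in S534A and 29.9% in WT after LPS. Of 16 genes of the interferon-gamma pathway 14 were tested, and 12 rose and 1 fell in S534A, while 11 rose and 1 fell in WT. Ifng, the cytokine itself, changed by 0.40 ± 0.09 in S534A (adjusted p = 0.00120) and by 0.17 ± 0.09 in WT (adjusted p = 0.146), and these changes differed by 0.24 ± 0.13 (interaction, adjusted p = 0.951). The group means of Ifng ran from 6.33 to 6.73, near the array medians, so whether they exceed background is not known here. The receptor chain Ifngr1 fell by 0.51 in S534A and by 0.34 in WT, and the chain Ifngr2 rose by 0.49 ± 0.09 and 0.57 ± 0.09. The kinase Jak2 rose by 1.60 ± 0.11 and 1.89 ± 0.11, and the transcription factor Irf1 by 1.79 ± 0.15 in S534A and 1.23 ± 0.15 in WT, with an interaction of 0.56 ± 0.21 (adjusted p = 0.951). Some targets on this list rose further in S534A and WT. They were the chemokines Cxcl10 (5.37 ± 0.11 and 5.36 ± 0.11), Cxcl9 (4.35 ± 0.16 and 4.35 ± 0.16) and Cxcl11 (3.38 ± 0.10 and 3.41 ± 0.10) and the immune checkpoint ligand Cd274 (4.78 ± 0.09 and 4.81 ± 0.09). Ciita, also on the list, stood at 0.10 ± 0.08 in S534A (adjusted p = 0.355) and 0.07 ± 0.08 in WT (adjusted p = 0.540). Its group means lay below the array medians. Whether interferon-gamma drove any of these changes was not tested. The feedback inhibitor Socs1 rose by 2.24 ± 0.09 and 2.14 ± 0.09.

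Of 16 type I interferon pathway genes 13 were tested, with 9 higher and 3 lower in S534A and 9 higher and 2 lower in WT. The transcription factors Stat2 and Irf9 rose by 1.76 ± 0.10 and 1.34 ± 0.07 in S534A and by 1.76 ± 0.10 and 1.15 ± 0.07 in WT, and Irf7 rose by 2.76 ± 0.13 and 2.53 ± 0.13. The targets Ifit2 (6.07 ± 0.12 and 6.15 ± 0.12), Rsad2 (5.53 ± 0.15 and 5.70 ± 0.15) and Ifit1 (5.77 ± 0.14 and 5.43 ± 0.14), all antiviral, rose most, followed by Ifit3 (4.32 ± 0.11 and 4.23 ± 0.11), Usp18 (4.15 ± 0.08 and 4.08 ± 0.08) and Oas1a (2.38 ± 0.10 and 2.56 ± 0.10). Irf3 (−0.33 ± 0.07 and −0.39 ± 0.07) and the kinase Tyk2 (−0.24 ± 0.09 and −0.25 ± 0.09) fell in both genotypes. The receptor chain Ifnar1 fell in S534A (−0.27 ± 0.08) and stood at −0.18 ± 0.08 in WT (adjusted p = 0.0837). Among 7 other dynamin-like GTPases tested, the antiviral Mx1 and Mx2 rose by 6.06 ± 0.14 and 5.73 ± 0.13 in S534A and by 6.04 ± 0.14 and 5.74 ± 0.13 in WT. The atlastin Atl3, which shapes the endoplasmic reticulum, fell by 1.30 and 0.92, and the endocytic dynamin Dnm2 by 0.28 and 0.30. Dnm1l, which divides mitochondria, fell in S534A (−0.37 ± 0.08) and stood at −0.13 ± 0.08 in WT (adjusted p = 0.214).

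Autophagy conjugation proteins, which guide IRGs and GBPs to vacuoles in mouse cells, had 1 of 16 genes higher and 7 lower in S534A, and 1 higher and 6 lower in WT. Of all genes tested, 31.2% fell in S534A and 29.9% in WT. The median change of the 16 genes was −0.22 in S534A and −0.13 in WT, against −0.03 and −0.05 over all genes. Atg5 fell by 0.69 and 0.51, Atg7 by 0.54 and 0.38, and the adaptor Calcoco1 by 1.03 and 0.79, and Atg4b and Gabarapl1 fell too (−0.57 ± 0.09 and −0.59 ± 0.10 in S534A, −0.47 ± 0.09 and −0.39 ± 0.10 in WT). Atg3 and Nbr1 passed in S534A, at −0.30 ± 0.08 and −0.36 ± 0.08 (−0.15 ± 0.08 and −0.20 ± 0.08 in WT), and Map1lc3a passed in WT, at −0.35 ± 0.10 (−0.03 ± 0.10 in S534A), and the interaction passed for none of these 3. Map1lc3b rose by 0.64 ± 0.10 and 0.67 ± 0.10 in S534A and WT. Of 6 prenylation and processing enzymes, some of which attach the lipid that anchors some GBPs to membranes, 1 rose and 4 fell in S534A. In WT 1 rose and 3 fell, and the median change was −0.27 in S534A and −0.25 in WT. The riser was Pggt1b, a subunit of a prenyl transferase, at 0.72 ± 0.08 and 0.86 ± 0.08, and the processing protease Rce1 fell by 0.65 and 0.62. Fntb and Icmt also fell (−0.32 ± 0.09 and −0.22 ± 0.08 in S534A, −0.30 ± 0.09 and −0.24 ± 0.08 in WT), and Zmpste24 fell in S534A (−0.31 ± 0.07) and stood at −0.02 ± 0.07 in WT. Of 6 genes of ubiquitin marking at vacuoles 2 rose and 3 fell in each genotype, with a median change of −0.09 in both. The risers were the ligases Rnf213 (3.01 ± 0.06 and 3.16 ± 0.06) and Trim21 (2.91 ± 0.09 and 2.93 ± 0.09), and Smurf1 (−0.78 ± 0.18 and −0.62 ± 0.18), Lrsam1 (−0.25 ± 0.10 and −0.36 ± 0.10) and Ubqln1 (−0.32 ± 0.08 and −0.34 ± 0.08) fell.

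Of 10 inflammasome and pyroptosis genes tested, some of which act downstream of GBPs at cytosolic LPS, 6 rose in S534A and 7 in WT, and none fell. Casp4 rose by 2.59 ± 0.12 in S534A and 2.81 ± 0.12 in WT, its substrate Gsdmd by 1.18 ± 0.09 and 1.09 ± 0.09, Il1b by 2.49 ± 0.14 and 2.66 ± 0.14, and the sensor Nlrp3 by 1.30 ± 0.10 and 1.30 ± 0.10. Il1a rose by 1.01 ± 0.14 and 1.17 ± 0.14 and Nek7, a partner of Nlrp3, by 0.45 ± 0.12 and 0.55 ± 0.12. Aim2, a DNA sensor, stood at −0.02 ± 0.11 and 0.05 ± 0.11, and the adaptor Pycard at 0.07 ± 0.06 and 0.04 ± 0.06. The group means of Aim2 and Pycard lay below the array medians, so whether they exceed background is not known here. All 14 NF-kB target genes tested rose in each genotype, with a median change of 2.08 in S534A and 2.17 in WT. The chemokine Ccl2 rose by 4.39 ± 0.11 and 4.29 ± 0.11, Cxcl1 by 3.44 ± 0.15 and 3.44 ± 0.15, the feedback inhibitor Tnfaip3 by 3.30 ± 0.09 and 3.26 ± 0.09, the adhesion molecule Icam1 by 2.85 ± 0.09 and 2.65 ± 0.09, Cxcl2 by 2.47 ± 0.16 and 2.57 ± 0.16, and Tnf by 2.20 ± 0.16 and 2.52 ± 0.16. The median over the 3 GBP genes was 4.27 and 4.35, and over the 2 IRG genes 2.34 and 2.30. These medians cover only genes of the set with their own probe set, and they do not rank the 2 families. Outside the set the IRG genes Gm12250 and Gm4951 rose by 5.43 and 1.75 in S534A and by 5.49 and 1.59 in WT. None of the 9 lists had a gene called in the genotype comparisons or the interaction.

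Cell type markers moved with LPS as well. All 8 neutrophil markers rose in both genotypes, with a log2 summed level of 10.94 to 11.46 in S534A and 10.76 to 11.63 in WT after LPS, against 8.71 to 8.86 and 8.64 to 8.72 untreated. Of 8 Kupffer cell markers 6 fell and 1 rose in each genotype, and their summed level was 10.97 to 11.36 in S534A and 11.32 to 11.59 in WT after LPS, against 12.30 to 12.83 and 12.54 to 13.02 untreated. Sinusoidal endothelial markers had 5 of 7 lower and 2 higher in each genotype, stellate cell markers 5 of 6 lower, and B cell markers 2 of 2 lower. Of 3 monocyte markers tested, 2 rose and 1 fell in S534A, and 1 rose and 1 fell in WT. Of 5 T and NK cell markers, the cytotoxic protease Gzmb rose in both (1.13 ± 0.15 and 1.17 ± 0.15), and Cd4 fell in WT (−0.32 ± 0.11) and stood at −0.22 ± 0.11 in S534A (adjusted p = 0.121). Of 7 hepatocyte markers none moved in S534A and 1 rose in WT, Hnf4a by 0.28 ± 0.08, and the hepatocyte sum stayed between 16.44 and 16.62 over all 16 arrays. The group means of Alb in that sum ran from 14.09 to 14.15, close to the highest value on any array, 14.54. Whether such values can still show a shift was not tested. The part of the marker shifts in the GTPase changes was not tested, and in whole liver fewer cells of a type and less RNA per cell cannot be told apart.

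The series asks how the substitution affects the response to LPS, and in LPS-treated livers no GTPase gene passed the test between genotypes. Over the 5 genes S534A minus WT ran from −0.18 ± 0.11 for Gbp3 to 0.04 ± 0.10 for Gbp7, and 0 of 5 passed in either direction (limma, adjusted p = 0.9996 for each). None had an unadjusted p under 0.05, and 0% of all genes tested passed, with 477 of 15908 at an unadjusted p under 0.05. Gbp5 differed by 0.00 ± 0.11 (95% interval −0.23 to 0.22), Iigp1 by 0.00 ± 0.08 (−0.17 to 0.17) and Irgm1 by −0.05 ± 0.09 (−0.24 to 0.14). The Gbp3 interval, −0.42 to 0.05, reached furthest from 0. Among shared probe sets the differences were −0.02 ± 0.15 for Gbp2 with Gbp2b, −0.02 ± 0.14 for Gbp6 with its cluster, 0.01 ± 0.18 for Ifi47 with Olfr56 and 0.11 ± 0.13 for Irgm2 with Igtp. None of these 4 passed, nor had an unadjusted p under 0.05, and 0.00384% of all probe sets did pass (1 of 26037). These intervals bound the differences in the deposited values and do not show that the genotypes are alike. Whether a ceiling of the signal narrowed the differences after LPS was not tested.

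Without LPS none of the 5 genes passed either, where 0.0126% of genes tested did (2 of 15908, with 1412 at an unadjusted p under 0.05). Irgm1 came closest. Its mean was 9.71 ± 0.09 in untreated S534A livers and 10.01 ± 0.18 in untreated WT livers (SD, n = 4 each), a difference of −0.29 ± 0.09 (95% interval −0.48 to −0.11, limma unadjusted p = 0.00402, adjusted p = 0.280). Its 2 groups did not overlap, and how many of all genes tested separate in this way was not counted. The adjusted p ran from 0.0531 to 0.788 over the alternatives. WT array 1, the highest of them, carried part of the difference, which was −0.21 without it. It was −0.15 without the 3 untreated arrays with shifted clock genes, WT arrays 1 and 3 and S534A array 3. Iigp1 differed by 0.16 ± 0.08 (adjusted p = 0.590), and by 0.04 without those 3 arrays. Gbp5, Gbp7 and Gbp3 differed by 0.06 ± 0.11, −0.01 ± 0.10 and −0.10 ± 0.11. The 4 shared probe sets gave differences from −0.20 ± 0.14 to −0.06 ± 0.18 with none passing or at an unadjusted p under 0.05, where 0% of probe sets passed.

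Whether LPS changed the genes differently in the S534A and WT livers was tested as an interaction, S534A minus WT. Again 0 of 5 genes passed by limma, none had an unadjusted p under 0.05, and 0% of all genes passed (766 of 15908 at an unadjusted p under 0.05). The differences were 0.24 ± 0.12 for Irgm1 (95% interval −0.02 to 0.51), 0.05 ± 0.15 for Gbp7, −0.07 ± 0.15 for Gbp5, −0.08 ± 0.16 for Gbp3 and −0.16 ± 0.11 for Iigp1 (−0.41 to 0.08). The intervals of all 5 genes lay within −0.41 to 0.51. For the 4 shared probe sets the interaction ran from 0.06 ± 0.21 to 0.25 ± 0.18, none passing, where 0% of probe sets passed. None of the 9 other family genes tested passed in any of the 3 genotype comparisons. Gbp11 had the widest error of these genes, so its differences are the least closely bounded.

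**Figure D5:**
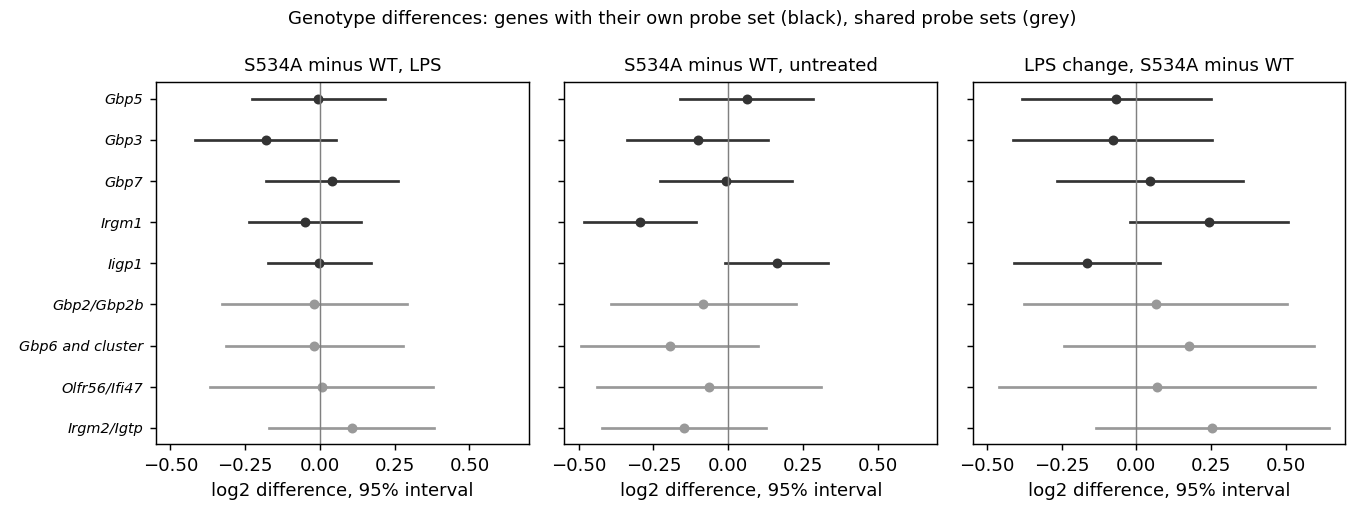
Genotype differences (x axis, log2, with the 95% interval of the limma fit, n = 4 per group) after LPS, without treatment, and in the LPS change, for 5 genes with their own probe set (black) and 4 shared probe sets (grey). Every interval includes 0 except that of Irgm1 in untreated livers, −0.48 to −0.11.

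Likeness to the mean of the 5 genes was measured by Pearson's r over the 16 log2 values, as a description. The 5 genes outside the set with the highest r were Gm12250, Trim30a, Samhd1, Mx2 and Parp14, each with an r of 0.999. The 16 points share the step between untreated and LPS arrays. Gm12250 is itself an IRG gene, and Mx2 another dynamin-like GTPase, while Trim30a rose by 3.60 in S534A and 3.73 in WT, Samhd1 by 3.32 and 3.41, and Parp14 by 3.58 and 3.72. With each group's mean removed, the highest r over the 16 deviations were those of Nfkbiz, Gltp, Dmac2l, Plekhh2 and Sprtn, from 0.852 to 0.889. Those 5 are the top of 15908 genes compared over few arrays, and none of them is a gene of the lists above.

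Over the series, array medians lay between 6.25 and 6.42, no value was missing and no arrays held identical values. LPS arrays and untreated arrays lay at opposite ends of principal component 1, which carried 78.5% of the variance. Rela lay between 11.37 and 11.43 in S534A and between 11.31 and 11.47 in WT arrays after LPS, and between 9.88 and 10.13 in untreated S534A and 10.03 and 10.34 in untreated WT arrays. The level of Rela does not tell a substituted from a normal transcript, so it does not check the genotype labels. The clock score, a mean of 5 clock genes minus Arntl, ran from −2.55 to 3.41 in untreated S534A and from −1.77 to 3.47 in untreated WT arrays, with 3 untreated arrays below 0. Leaving out those 3 moved no call of the 5 genes or the 4 shared probe sets in any comparison.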

How the data were processed

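Liver RNA of 16 samples was measured on 1 array each. The deposited values are log2 expression values to which RMA had been applied, per the submitters' processing notes; no version or genome build is named there. The authors' table held 35556 probe sets, of which 21789 carry a single gene symbol in the platform annotation, 1621 several symbols and 12146 no symbol. Gene identifiers matched RefSeq for 21698 and changed 0 symbols. Scanner files were not used here, so signal over background is unknown. Precision rests on the number of arrays.

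Probe sets above percentile 30 of the array on 4 or more arrays were kept (26037). For each of 15908 genes, the probe set with the highest mean was taken among those with 1 symbol. limma 3.58.1 in R 4.3.3 fitted 4 group means over all 16 arrays with no covariate (12 residual degrees of freedom), and p-values were two-sided and adjusted by Benjamini-Hochberg over all genes. Shared probe sets came from a fit of the same design over all probe sets kept. The gene fit was tested on simulated data for the WT LPS contrast only. Genotype contrasts, the interaction and the probe set fit were not simulated. Figures used Python 3.11.15 and matplotlib 3.10.9.

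The members and lists were chosen with earlier results of these data known. The named genes were the members, every other GBP or IRG gene measured, from each other list up to 6 genes past the threshold with the largest WT change and any gene that fell, and the 5 genes most alike by each measure. Ifng, Ifngr2, Irf1, Ciita, Stat2, Irf7, Irf9, Aim2 and Pycard, and among cell type markers Gzmb, Cd4 and Hnf4a, were chosen after their values were seen. The labels do not say whether replicate numbers pair samples. Deviations of same-numbered arrays correlated between −0.49 and 0.59, which cannot decide it. Alternatives covered the filter, probe set choice, scaling, array weights, variance prior, replicate block, samples in the fit, thresholds and arrays left out.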

Additional observations from a re-analysis of the deposited data

Results flagged for a closer look

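Within each group the highest and lowest of 4 arrays were compared with the others for 18 genes and probe sets, 72 groups in all, and chance flags about 5% of such groups. In 4 groups 1 array stood apart, by a gap over range above Dixon's 95% critical value. Untreated S534A array 2 was low for Gbp4 (6.37, against 7.10 to 7.24 in the other 3 arrays), for Gbp8 (7.27, against 7.82 to 7.91) and for the probe set of Irgm2 and Igtp (9.0, against 9.52 to 9.63). Untreated WT array 4 was high for Iigp1 (11.19, against 10.84 to 10.88 in the other 3). Without that WT array the genotype difference of Iigp1 in untreated livers was 0.25 (limma adjusted p = 0.177) in place of 0.16. No GTPase gene passed the test of its LPS effect between genotypes (limma interaction).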

How the results depend on the processing

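The counts of member genes called did not change in any alternative run, with 5 of 5 after LPS in S534A and in WT and 0 of 5 in the 3 genotype comparisons, over 29 alternatives each (28 for the interaction). The 4 shared probe sets kept their calls too. Over the alternatives Gbp5 ran from 5.22 to 5.40 in S534A and 5.26 to 5.49 in WT, and Iigp1 from 1.63 to 1.76 and 1.79 to 1.98. With the replicate block, Gbp5 gave adjusted p = 2.76e-13 in S534A and 2.42e-13 in WT, the member counts stayed 5 after LPS and 0 between genotypes, and it changed no call of these genes or the shared probe sets. Same-numbered arrays did not deviate together throughout, which cannot decide whether the numbers are a pairing. With arrays centred on their medians, the median LPS change of all genes was −0.13 in S534A and −0.16 in WT, in place of −0.03 and −0.05. Rises then made up 21.5% of calls in S534A and 22.1% in WT, in place of 31.3% and 33.3%, and Gbp5 rose by 5.22 and 5.29. All-gene counts changed by more than 1.5 times with a 1.5-fold minimum (1156 higher and 2130 lower in S534A in place of 2258 and 4967, and 1269 and 1889 in WT in place of 2377 and 4762). With every probe set tested by itself, 4188 were higher in S534A and 4736 in WT, but these are counts over 26037 probe sets. As shares they were 16.1% of probe sets against 14.2% of genes in S534A, and 18.2% against 14.9% in WT. Array quality weights gave 3399 higher in S534A, and 215 higher and 155 lower between untreated genotypes in place of 1 each, while the replicate block gave 0 and 0 there. Other counts between genotypes stayed at 6 or fewer. Over the 5 genes the 95% interval reached up to 0.24 to either side of a genotype difference within 1 treatment and up to 0.33 for the interaction. Over the 4 shared probe sets it reached up to 0.37 and 0.53. These widths limit what 4 arrays a group can show.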
